A study of Homo sapiens with 2 samples.

Results

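The genes HK1, HK2, PFKFB3, ALDOA, PGK1, ENO1, LDHA, PDK1, HIF1A and VEGFA encode enzymes of glycolysis and parts of the cell's answer to low oxygen. They were chosen by name, by a rule that uses no measured value though it was set with earlier results of these data known, and are 10 of the 36601 genes listed in the deposited matrices, where each was found by its symbol. They were followed in organoids, small cultured tissues, that had been differentiated towards colon from an established line of human iPS cells, 1383D6. The series title names ulcerative colitis, an inflammation of the colon, as the disease to be modelled, and the comparison asks what inflammatory cytokines do to such organoids. One culture, called 3CK, was kept for 8 days with IL-1β, TNF-α and IFN-γ. The other, CNT, was not treated. Each was dissociated with trypsin and captured as a single-cell library of 3' transcript ends.

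Both cultures had gone through the same differentiation. Stem cells were given Activin A with Y-27632, then FGF2, and were embedded in Matrigel and exposed to EGF, forskolin, the MEK inhibitor PD98059, the DNA methylation inhibitor 5-Aza-2'-deoxycytidine and a further inhibitor. The control cells therefore also carried these agents. All cells came from 1 line, and each group was 1 library, so the differences have no replicate check and no test was possible. Intervals of single genes and of shares below are 95% intervals for counting error only. Oxygen, glucose and lactate in the cultures were not analysed here.

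After filtering, 2487 CNT and 1398 3CK barcodes remained, with 101582054 and 91863865 unique molecular identifiers (UMIs, each counting 1 captured RNA molecule). No barcode was shared by the libraries. Cells with at least 2 EPCAM UMIs per 10000 were called epithelial (1655 CNT and 1016 3CK cells), and cells with at least 5 UMIs per 10000 from COL1A1, COL1A2 and COL3A1 and under 1 of EPCAM were called mesenchymal (577 and 124 cells). Levels are given as CPM, the UMIs of a gene scaled to the same total in every class and library. The cytokine labels were checked with CXCL10 and IDO1, genes induced by IFN-γ: in epithelial cells CXCL10 stood at 0.316 CPM in CNT and 1786 in 3CK, and IDO1 at 0.132 and 553. The colon label was not assessed, as no list of colon markers was examined. TTR, a carrier protein of liver and early endoderm, was at 64864 CPM in CNT and 19494 in 3CK epithelial cells, and summed hepatic markers were at 95429 and 31390. In the same cells CDX2, a transcription factor of gut epithelium, was at 80.1 and 83.3 CPM, and the 5 enterocyte markers summed to 6233 and 2025. The libraries also differed in depth, with a median of 37807 UMIs per CNT and 72198 per 3CK epithelial cell, and 23220 and 65363 per mesenchymal cell. Of the CNT epithelial cells 29.9% also passed the collagen minimum, against 4.82% in 3CK. The mesenchymal class also held epithelial transcripts: the 9 epithelial markers summed there to 8994 CPM in CNT and 11704 in 3CK. Most of this was KRT18, at 4931 and 6968, and KRT8, at 3218 and 4023, while EPCAM was at 20.5 and 17.2. The 10 mesenchymal markers summed to 14815 and 9618 CPM there, with COL1A1 at 3009 and 906 and VIM at 3763 and 4570. The part of this make-up in the mesenchymal ratios was not tested.

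Glycolysis splits glucose into pyruvate. Hexokinases trap glucose as glucose 6-phosphate, phosphofructokinase commits it to breakdown, and PFKFB3 makes the sugar phosphate that switches phosphofructokinase on. ALDOA (aldolase), PGK1 (phosphoglycerate kinase) and ENO1 (enolase) act further down, and LDHA turns pyruvate into lactate. PDK1 blocks the pyruvate dehydrogenase complex and so keeps pyruvate out of the citric acid cycle. HIF1A is the oxygen-regulated subunit of the factor HIF-1, which binds near many of these genes and near VEGFA, the main growth factor for blood vessels. With oxygen, prolyl hydroxylases such as EGLN1 and EGLN3 mark the HIF1A protein for breakdown, so the protein is set largely after transcription, and a HIF1A transcript level is not a measure of HIF-1 activity. In the gut, the colon epithelium borders a low-oxygen lumen, and NF-κB and HIF-1 are both known to act in inflamed mucosa.

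In the GENCODE 44 annotation of GRCh38 the members are protein-coding genes, and the UMIs count the 3' ends of their transcripts. Those on the plus strand are HK1 at chr10:69269984-69401884, HK2 at chr2:74834127-74893359, PFKFB3 at chr10:6144934-6254644, ALDOA at chr16:30064164-30070457, PGK1 at chrX:77910739-78129295, LDHA at chr11:18394560-18408425, PDK1 at chr2:172555373-172608669, HIF1A at chr14:61695513-61748259, VEGFA at chr6:43770184-43786487. The minus strand holds ENO1 at chr1:8861000-8879190.

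The core of the DNA element that HIF-1 binds reads ACGTG, or CACGT on the other strand. The 250 bases before each start site of the members were searched for it in RefSeq sequence of build GRCh38.p14, which held 9 of the 10 genes with 22 start sites. The letters occurred in 9 of the 22 windows, against 6501 of 35116 windows of all genes (18.5%). By gene they occurred in 6 of the 9, a count with no share over all genes beside it. A gene with more windows has more chances to hold them. Some windows of 1 gene overlap each other. A match describes the letters only and is neither a bound site nor a cause of any level below. The windows of HK2, LDHA and PGK1 are shown because these genes come from the top, the end and the middle of the pathway and each holds the letters more than once. Capitals mark the motif on either strand, and both strand forms overlap where 6 capitals run together as CACGTG. The HK2 window is chr2:74833877-74834126, with runs that begin 229 and 48 bases before the start. The LDHA window is chr11:18394313-18394562, with runs at 185, 87 and 73 bases before it. The PGK1 window is chrX:78103998-78104247, with runs at 202 and 183. All are on the plus strand.
HK2: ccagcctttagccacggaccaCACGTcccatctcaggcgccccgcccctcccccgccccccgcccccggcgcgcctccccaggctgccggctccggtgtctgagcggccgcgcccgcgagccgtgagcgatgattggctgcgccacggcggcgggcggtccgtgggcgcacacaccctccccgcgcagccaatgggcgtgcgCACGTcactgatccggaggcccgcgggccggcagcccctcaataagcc
LDHA: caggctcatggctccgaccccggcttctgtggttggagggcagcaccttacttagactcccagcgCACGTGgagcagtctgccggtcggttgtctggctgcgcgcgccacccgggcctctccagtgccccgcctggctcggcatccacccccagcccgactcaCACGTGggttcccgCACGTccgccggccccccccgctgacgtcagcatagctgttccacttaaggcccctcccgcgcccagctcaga
PGK1: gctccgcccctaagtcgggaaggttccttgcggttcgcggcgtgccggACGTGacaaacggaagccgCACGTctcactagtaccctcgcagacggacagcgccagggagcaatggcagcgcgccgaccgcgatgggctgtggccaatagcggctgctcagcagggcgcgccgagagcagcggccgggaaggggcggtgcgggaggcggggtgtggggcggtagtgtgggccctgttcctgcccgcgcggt
Of the genes shown, HK2 held the letters in 2 of 2 windows, LDHA in 1 of 2 and PGK1 in 1 of 1. Of the other members, ALDOA held the letters in 3 of 3 windows, PDK1 in 1 of 2 and PFKFB3 in 1 of 2, while the windows of ENO1 (1), HIF1A (2) and HK1 (7) did not hold them.

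In epithelial cells 9 of the 10 genes were higher in 3CK and PDK1 was lower. The median log2 ratio of 3CK over CNT was 0.64 (0.55 to 0.73) over the 10 genes, while all 9788 genes that reached 10 CPM in CNT or 3CK had a median of 0.07, with the middle 50% between -0.30 and 0.40. Most of the differences were moderate. Only HK2 of the 10 was at least 2-fold higher, a rule that 7.9% of all compared genes met, and no member was at least 2-fold lower (7.66% of all genes; 15.6% were 2-fold apart in either direction). At 1.5-fold, a boundary chosen after the values were seen, 7 of the 10 were higher, namely HK1, HK2, ALDOA, ENO1, LDHA, HIF1A and VEGFA, where 16.5% of all genes were, and PDK1 was lower, where 14.3% were. Since 1 library stands for each culture, these counts describe these 2 libraries.

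In mesenchymal cells the same 9 genes were higher, PFKFB3 by only 0.02 and with changing sign by setting, and PDK1 was again lower. The median log2 ratio was 0.70 beside -0.12 over 10272 compared genes. The bounds of the middle genes, HIF1A and ALDOA, averaged 0.53 and 0.86, again not an interval of the median. None of the 10 was 2-fold higher (4.79% of all genes) or 2-fold lower (9.58%; 14.4% in either direction). At 1.5-fold 6 were higher, ALDOA, PGK1, ENO1, LDHA, HIF1A and VEGFA (9.52% of all genes), and PDK1 was lower (21.7%). The 3CK mesenchymal class was small, with 124 cells and 9115881 UMIs, so its low genes rest on few counts, for example 66 UMIs of PDK1 and 110 of HK2.

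**Figure D1:**
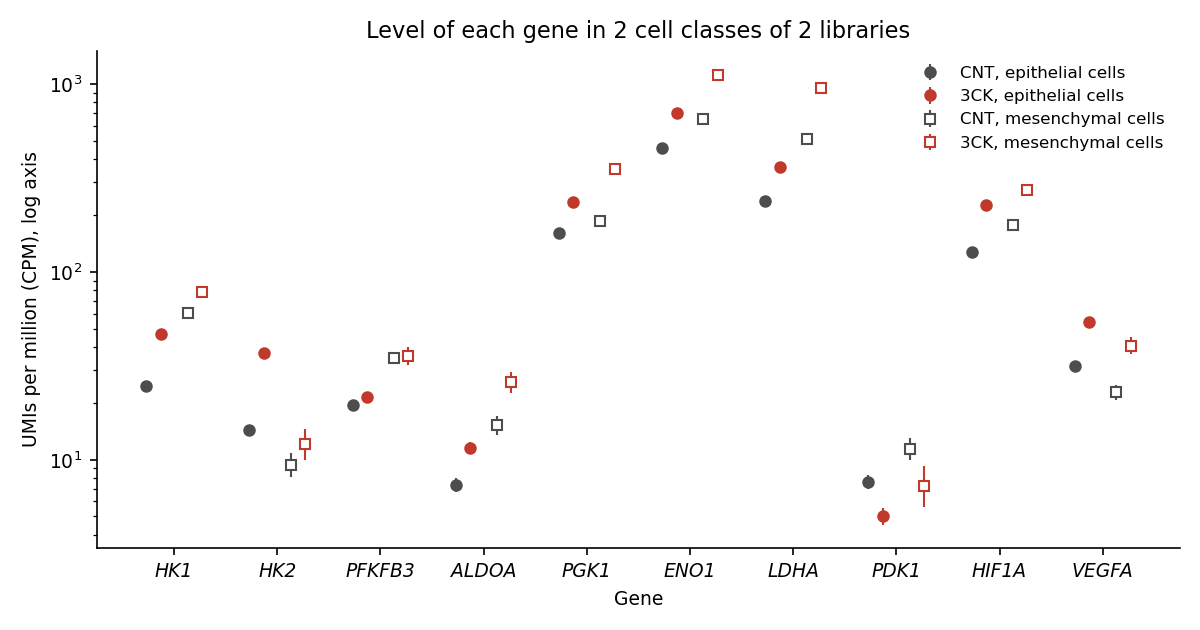
Level of each gene in CPM (log axis) in epithelial (circles) and mesenchymal cells (squares) of CNT (grey) and 3CK (red), with 95% counting intervals, many of them smaller than the symbol. The 3CK symbol is above the CNT symbol for 9 genes in both classes and below it for PDK1, with PFKFB3 nearly level in mesenchymal cells; the order of different genes on the axis also carries how well each 3' end is captured.

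**Figure D2:**
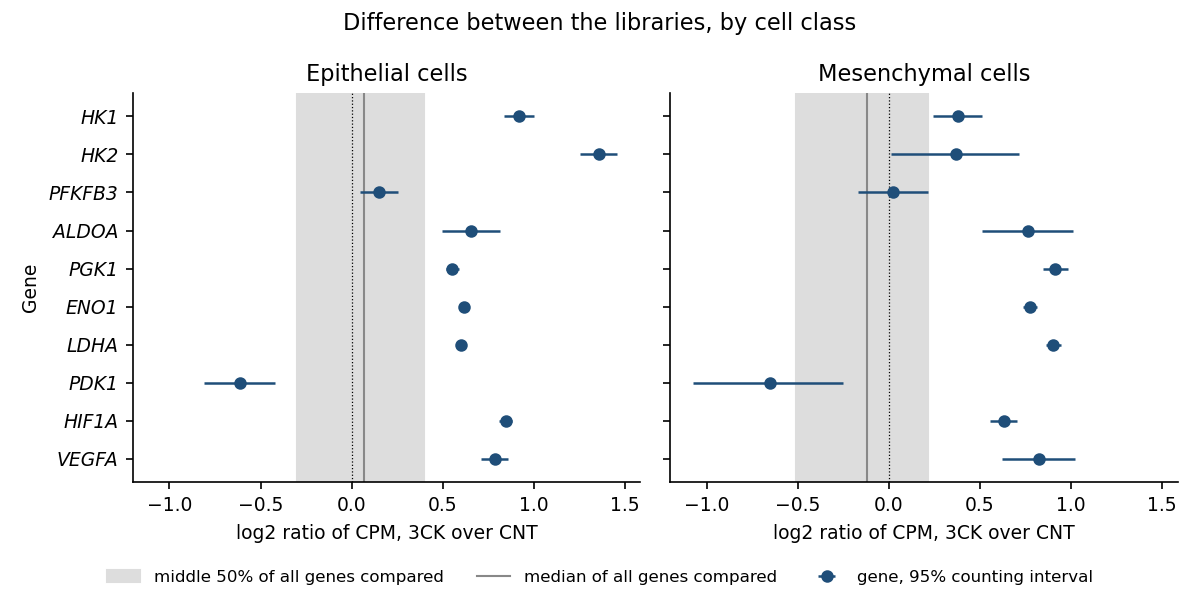
Log2 ratio of 3CK over CNT for each gene, with 95% counting intervals; the shaded band holds the middle 50% of all compared genes and the grey line marks their median. In epithelial cells HK2 lies farthest to the right at 1.35, PFKFB3 lies inside the band and PDK1 to its left at -0.61.

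Hexokinases take glucose into the pathway, and HK2 is the inducible form in many tissues while HK1 is the more constant one. HK2 stood at 14.4 CPM in CNT and 36.8 in 3CK epithelial cells (1093 and 2583 UMIs), a log2 ratio of 1.35 (1.25 to 1.46). HK1 was also higher, at 24.8 and 47.0 CPM and a log2 ratio of 0.92 (0.84 to 1.00). In mesenchymal cells HK1 was at 60.1 and 78.1 CPM, with a log2 ratio of 0.38 (0.24 to 0.51). HK2 was at 9.36 CPM there in CNT and 12.1 in 3CK, with an interval that reached from 0.01 to 0.71. As a share of the UMIs of both genes, which no scaling changes, HK2 made up 36.7% in CNT and 43.9% in 3CK epithelial cells, and 13.5% and 13.4% in mesenchymal cells. A share between genes also carries how well each 3' end is captured. HKDC1, a further hexokinase family member of epithelia, was at 27.3 and 37.6 CPM in epithelial cells (log2 ratio 0.46).

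The transporters that feed these enzymes went the other way in epithelial cells. SLC2A1 (GLUT1) had a log2 ratio of -1.79, with 92.2 CPM in CNT and 26.7 in 3CK, and SLC2A3 (GLUT3) was at 207 and 40.9, a log2 ratio of -2.34. SLC2A2, the glucose transporter of liver and gut, was at 12.7 and 1.97 CPM, the smallest ratio of its list at -2.69. Hepatic markers were lower in 3CK epithelial cells as well (given above), and their part in the transporter levels was not tested. In mesenchymal cells SLC2A1 was nearly level at 115 and 103 CPM (log2 ratio -0.16, above 0 with TMM scaling). Its ratio there was 0.83 where cells with any EPCAM UMI were left out. SLC2A3 was lower in mesenchymal cells, at 34.3 and 18.0 CPM (log2 ratio -0.93). The SLC2A3 ratio was -2.71 with equal weight of cells and -0.06 where cells with any EPCAM UMI were left out.

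PFKFB3, the activator of phosphofructokinase, differed least of the 10. It was at 19.5 CPM in CNT and 21.7 in 3CK epithelial cells, a log2 ratio of 0.15 (0.05 to 0.26) that turned to -0.03 when each cell had equal weight. In mesenchymal cells it was at 35.0 and 35.5 CPM, a log2 ratio of 0.02 (-0.17 to 0.22) that changed sign under 5 of 9 alternatives and was 0.98 with equal weight of cells. The platelet-type phosphofructokinase PFKP was higher in both classes, with log2 ratios of 0.82 and 0.61.

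The members ENO1, PGK1 and ALDOA, which act further down the pathway, were higher in both classes. ENO1, the enolase, was at 457 CPM in CNT and 702 in 3CK epithelial cells (log2 ratio 0.62, 0.60 to 0.64) and at 654 and 1119 in mesenchymal cells (0.78, 0.74 to 0.81). PGK1, which makes the first ATP of the pathway, was at 161 and 236 CPM in epithelial cells (0.55, 0.52 to 0.59) and at 187 and 353 in mesenchymal cells (0.91, 0.84 to 0.98). The mesenchymal ratio was the larger for both genes in this pair of libraries, though the difference between the classes was not tested. ALDOA was at 7.33 and 11.5 CPM in epithelial cells (0.65, 0.50 to 0.81) and at 15.3 and 25.9 in mesenchymal cells (0.76, 0.51 to 1.01). Its level is uncertain: in GENCODE 44 another gene, AC093512.2, covers 42.8% of the exonic bases of ALDOA on the same strand, and reads that match both are not counted for either by the usual rules of Cell Ranger. AC093512.2 itself was counted with 21 UMIs in the CNT library and 10 in the 3CK library, and the effect on ALDOA was not tested. ENO1, PGK1, LDHA and GAPDH have processed pseudogenes that can take or lose reads, so their levels carry that limit too.

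ALDOC, another aldolase, did not follow ALDOA. In epithelial cells ALDOC was at 13.8 CPM in CNT and 2.15 in 3CK (log2 ratio -2.68, or -2.05 as a mean over 3 ranges of the cells' TTR level). Among the steps between the members, GAPDH was at 2246 and 2529 CPM in epithelial cells and 3457 and 4523 in mesenchymal cells, with log2 ratios of 0.17 and 0.39; the epithelial one was -0.02 as a mean over TTR ranges. TPI1 was at 443 and 442 CPM in epithelial cells, with a ratio on either side of 0 by setting, and was higher in mesenchymal cells at 0.65. PGAM1 had log2 ratios of 0.36 and 0.68, and pyruvate kinase PKM 0.40 and 0.76, the epithelial value of PKM falling to -0.05 as a mean over TTR ranges. ENO2 was at 9.62 and 23.5 CPM in mesenchymal cells, the largest ratio of the list there at 1.29.

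LDHA encodes the lactate-forming subunit of lactate dehydrogenase, and LDHB the subunit that favours the return to pyruvate. LDHA was at 238 CPM in CNT and 362 in 3CK epithelial cells, a log2 ratio of 0.60 (0.57 to 0.63). LDHB was lower, at 681 and 423 CPM (-0.69). LDHA thus made up 25.9% (25.6 to 26.2) of the UMIs of both subunits in CNT and 46.1% (45.7 to 46.5) in 3CK epithelial cells. In mesenchymal cells LDHA was at 509 and 951 CPM (0.90, 0.86 to 0.94) while LDHB was at 457 and 454 (-0.01, on either side of 0 by setting), and the LDHA share was 52.7% in CNT and 67.7% in 3CK. The share was chosen after the values were seen. SLC16A3 (MCT4), which exports lactate, was at 26.4 and 67.7 CPM in epithelial cells (1.36) and 92.5 and 165 in mesenchymal cells (0.84).

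PDK1, the brake on pyruvate dehydrogenase, was the member that was lower in 3CK. It was at 7.63 CPM in CNT and 4.99 in 3CK epithelial cells (579 and 350 UMIs), a log2 ratio of -0.61 (-0.81 to -0.42; -1.23 with equal weight of cells), and stayed under the 10 CPM that all compared genes had to reach. In mesenchymal cells it was at 11.4 and 7.24 CPM (-0.65, -1.07 to -0.25), and the ratio was 0.09 where mesenchymal cells with any EPCAM UMI were left out. PDP1, the phosphatase that releases the same complex, was higher in both classes, with log2 ratios of 0.78 and 0.77. Of the 8 genes of pyruvate entry compared in epithelial cells, 1 was 2-fold lower (7.66% of all genes) and none 2-fold higher (7.9%). This was MPC2, a subunit of the mitochondrial pyruvate carrier, at 357 and 170 CPM (-1.07, or -0.70 as a mean over TTR ranges, under 2-fold). Its partner MPC1 was at 67.7 and 35.7 (-0.92). In mesenchymal cells MPC2 was at 103 and 142 CPM (0.46, but -0.11 with equal weight of cells). None of 9 genes compared there was 2-fold apart (14.4% of all genes).

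HIF1A was at 127 CPM in CNT and 228 in 3CK epithelial cells, a log2 ratio of 0.85 (0.81 to 0.88), and at 177 and 275 in mesenchymal cells (0.63, 0.56 to 0.70). EPAS1, which encodes the related subunit HIF-2α, was at 66.2 and 122 CPM in epithelial cells (0.88). In mesenchymal cells it was at 186 and 129 (-0.54, but -0.08 with equal weight of cells). Thus the transcripts of both subunits were higher in 3CK epithelial cells, and in mesenchymal cells the subunits differed in direction. Among the 13 genes for HIF subunits and oxygen sensors compared in epithelial cells, 1 was 2-fold higher (7.9% of all genes) and none 2-fold lower (7.66%). It was EGLN3, a hydroxylase that is itself a HIF target, at 6.58 and 22.2 CPM (1.75, 1.61 to 1.90, but 0.92 and so under 2-fold with equal weight of cells). In mesenchymal cells it was at 6.26 and 14.6 CPM (1.22, or 0.82 with higher minimums for both classes). EGLN1 was higher in epithelial cells at 0.65, and its mesenchymal value of 0.13 turned to -0.16 with equal weight of cells. In mesenchymal cells HIF3A was 2-fold lower, at 14.6 and 5.81 CPM (-1.33). This 2-fold difference ended under 3 of 9 alternatives, with values of -0.82 under stricter filters on cells, -0.85 with equal weight and -0.97 where cells with any EPCAM UMI were left out. ELOB, part of the complex that removes the HIF1A protein, was close to level in both classes (-0.20 and 0.14).

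VEGFA was at 31.4 CPM in CNT and 54.1 in 3CK epithelial cells, a log2 ratio of 0.78 (0.71 to 0.86), and at 22.9 and 40.5 in mesenchymal cells (0.82, 0.62 to 1.02). The mesenchymal ratio was 0.11 with equal weight of cells, under 1.5-fold, and 1.58 where cells with any EPCAM UMI were left out. Its relatives differed from it. PGF, a ligand of the receptor FLT1, was at 134 and 44.5 CPM in epithelial cells (-1.59) and 114 and 97.4 in mesenchymal cells (-0.23). VEGFC, the ligand of lymphatic vessels, was at 24.8 and 134 CPM in mesenchymal cells, the largest ratio of its list at 2.43. The receptor KDR was at 32.1 and 8.01 CPM there (-2.00, between -2.75 and -1.16 by setting), where the other 4 endothelial markers, PECAM1, CDH5, VWF and CLDN5, were at or below 4.61 CPM in both libraries and none was at 0. FLT1 was at 308 and 314 (0.03, or -0.02 on a total without the most abundant genes). The co-receptors took different directions by class: NRP1 had log2 ratios of 0.61 in epithelial (0.09 as a mean over TTR ranges) and -0.32 in mesenchymal cells (0.51 with equal weight of cells), and NRP2 of -1.22 and 0.71.

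Other hypoxia response genes did not move as 1 block. Of 22 compared in epithelial cells, 7 were higher and 15 lower in 3CK. Their median log2 ratio was -0.23, below the 0.07 of all genes. Of the 22, 4 were 2-fold higher (7.9% of all genes) and 4 were 2-fold lower (7.66%). Among the higher 4 were DDIT4, an inhibitor of mTOR signalling, at 11.1 and 58.7 CPM (2.41), STC2 (2.10, or 1.16 with equal weight of cells) and BHLHE40 (1.35, or 0.84 as a mean over TTR ranges). The lower 4 were LOX, a collagen cross-linking enzyme, at 66.6 and 15.2 CPM (-2.13), NDRG1 at 53.2 and 18.0 (-1.57), LOXL2 (-1.46) and FAM162A at 231 and 113 (-1.03, or -0.68 as a mean over TTR ranges). LOXL2 was at 0.01 where epithelial cells that passed the collagen minimum were left out, a group that was 29.9% of CNT and 4.82% of 3CK epithelial cells.

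In mesenchymal cells 14 of 23 were higher, and the median was 0.15 where all genes had -0.12. Of the 23, 6 were 2-fold higher (4.79% of all genes) and none 2-fold lower (9.58%). Among the 6 were AK4 (1.26, but -0.88 with equal weight of cells), ADM at 75.5 and 180 CPM (1.26), STC2 (1.21), BNIP3 at 85.8 and 192 (1.17, or 0.82 with equal weight) and NDRG1 at 15.4 and 30.8 (1.00). NDRG1 was under 2-fold by 5 of 9 alternatives and at 0.11 with equal weight of cells. BNIP3, which marks mitochondria for removal, was lower in epithelial cells at 128 and 97.2 CPM (-0.40). ANKRD37 was at 80.6 and 159 in mesenchymal cells (0.98, or 1.62 with equal weight) and 22.0 and 18.5 in epithelial cells (-0.25). KDM3A, a histone demethylase induced by HIF-1, had the smallest mesenchymal ratio of the list at -0.67. The 6 leukocyte markers summed to 56.2 CPM in CNT and 199 in 3CK mesenchymal cells. Most of this was CD68, at 26.7 and 91.4 CPM, and TYROBP, at 27.1 and 87.9, with FCER1G at 1.68 and 15.7, PTPRC at 0.560 and 3.62 and CD3E at 0 in 3CK. The 5 cycling markers, all above 10 CPM, summed to 197 and 289. The part of these cells in the mesenchymal ratios was not tested.

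The other genes of sugar metabolism were counted by the same 2-fold rule. For other genes of glucose uptake, glycolysis and lactate, 18 were compared in epithelial cells. SLC16A3 was 2-fold higher (7.9% of all genes) and 5 were 2-fold lower (7.66%). Among these 5 were SLC2A1, SLC2A2, SLC2A3 and ALDOC, and the median of the 18 was 0.04. In mesenchymal cells ENO2 was 2-fold higher among 16 (4.79% of all genes), none was 2-fold lower (9.58%), and the median was 0.31. Of 10 genes of gluconeogenesis and glycogen in epithelial cells, PCK2, the mitochondrial PEP carboxykinase, was at 24.5 and 75.4 CPM (1.62) and FBP1, the gluconeogenic fructose bisphosphatase, had the smallest ratio of the list at -2.43. The most abundant of that list, UGP2, was at 125 and 123 CPM in epithelial cells. None of 9 compared in mesenchymal cells was 2-fold apart (14.4% of all genes).

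**Figure D3:**
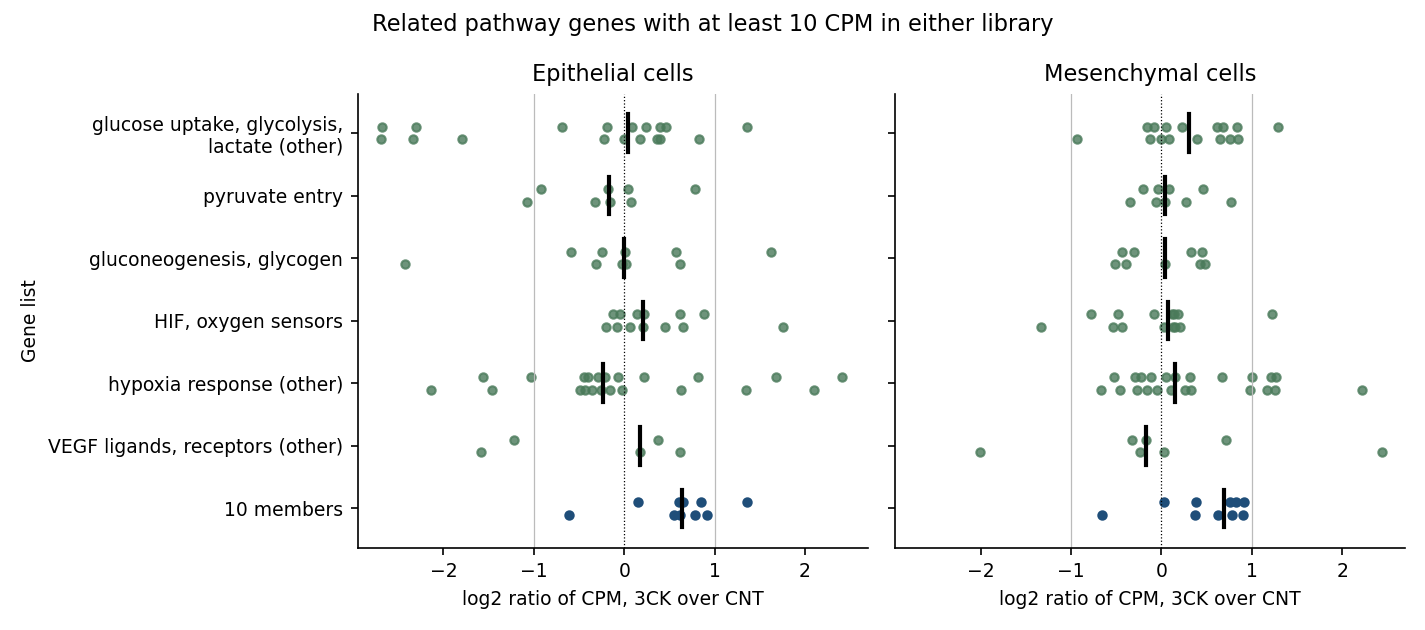
Log2 ratio of 3CK over CNT for single genes (points) of 6 related lists and of the 10 members (blue), in epithelial and mesenchymal cells, with black bars at each list's median and grey lines at 2-fold. The points of the hypoxia response list spread from -2.13 to 2.41 in epithelial cells, while 8 of the 10 members lie between 0.55 and 1.35 there.

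Within each library, most members were lower in epithelial than in mesenchymal cells. In CNT 8 of the 10 were lower and 3, HK1, ALDOA and LDHA, were at least 2-fold lower, where 21.1% of the 10892 compared genes were. The median log2 ratio of epithelial over mesenchymal cells was -0.55 in CNT beside -0.28 for all genes. In 3CK it was -0.63 beside -0.07, with ALDOA and LDHA 2-fold lower (15% of all genes). TMM scaling ended these calls for all 3 genes in CNT (HK1 -0.85, ALDOA -0.64 and LDHA -0.67) and for ALDOA in 3CK (-0.99). HK2 and VEGFA were higher in epithelial cells in both libraries. The difference for HK2 was a log2 ratio of 0.62 (0.40 to 0.85) in CNT and 1.61 (1.33 to 1.90) in 3CK, a 3.05-fold difference in the treated library, where 13.3% of all genes were 2-fold higher. VEGFA had log2 ratios of 0.46 and 0.42, but the CNT value turned to -0.07 with equal weight of cells and the 3CK value to -0.46 with strict classes (epithelial cells under the collagen minimum and mesenchymal cells with no EPCAM UMI). PGK1 in CNT was at -0.22 and turned to 0.21 with TMM scaling, which moved the median of all genes from -0.28 to 0.14.

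Epithelial cells were divided further by TTR (under 50, 50 to 500, and at least 500 UMIs per 10000), and both classes by a cycling range (at least 5 UMIs per 10000 from MKI67, TOP2A, CDK1, CCNB1 and CENPF). These are ranges of a level and not cell types. There were 10 groups of at least 50 cells over both libraries. LDHA ran from 204 CPM in CNT epithelial cells with TTR of at least 500 to 939 in 3CK mesenchymal cells outside the cycling range. The 6 other members HK1, PFKFB3, ALDOA, PGK1, ENO1 and HIF1A were highest in that mesenchymal group too. How many of all genes were highest there was not counted, so this does not set the members apart from other genes. HK2 had the widest range, from 2.90 CPM in cycling CNT mesenchymal cells (7 UMIs) to 53.6 in 3CK epithelial cells with TTR under 50. VEGFA had its lowest and highest levels in the same groups as HK2, at 19.4 and 57.4 CPM. PDK1 went from 3.86 CPM in 3CK epithelial cells with TTR of 50 to 500 to 13.7 in cycling CNT mesenchymal cells.

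The difference between libraries was not uniform over the TTR ranges. Outside the cycling range HK2 had log2 ratios of 0.80, 0.95 and 1.16 from the lowest TTR range to the highest, and HK1 of 0.30, 0.51 and 0.49. HIF1A was at 109 CPM in CNT and 268 in 3CK cells with TTR under 50, a log2 ratio of 1.30 (1.18 to 1.43), beside 0.64 and 0.52 in the other ranges. LDHA went the other way in the lowest range, at 444 and 355 CPM (-0.32, -0.39 to -0.25), beside 0.61 and 0.44 at higher TTR. ENO1 had 0.17 in the lowest range and 0.62 and 0.38 above it, and ALDOA had -0.33 with an interval that included 0, then 0.65 and 0.29. VEGFA was similar between ranges, at 0.72, 0.61 and 0.81. PFKFB3 took both signs, at 0.36, -0.33 and 0.11. PDK1 was lowest against CNT in the middle range at -1.32 and had intervals that included 0 in the other ranges.

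The cells of these ranges were unevenly split, with 92 CNT and 266 3CK cells under 50, 854 and 620 from 50 to 500, and 609 and 81 at 500 or more. In the middle range the median depth was 3409 UMIs per CNT and 79650.5 per 3CK cell. Averaged over the 3 ranges with equal weight, cycling cells included, the median log2 ratio of the 10 members in epithelial cells was 0.40 rather than 0.64, and that of LDHA was 0.25 and of ENO1 0.41. HK2 then stood at 0.97, so none of the members was 2-fold apart.

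**Figure D4:**
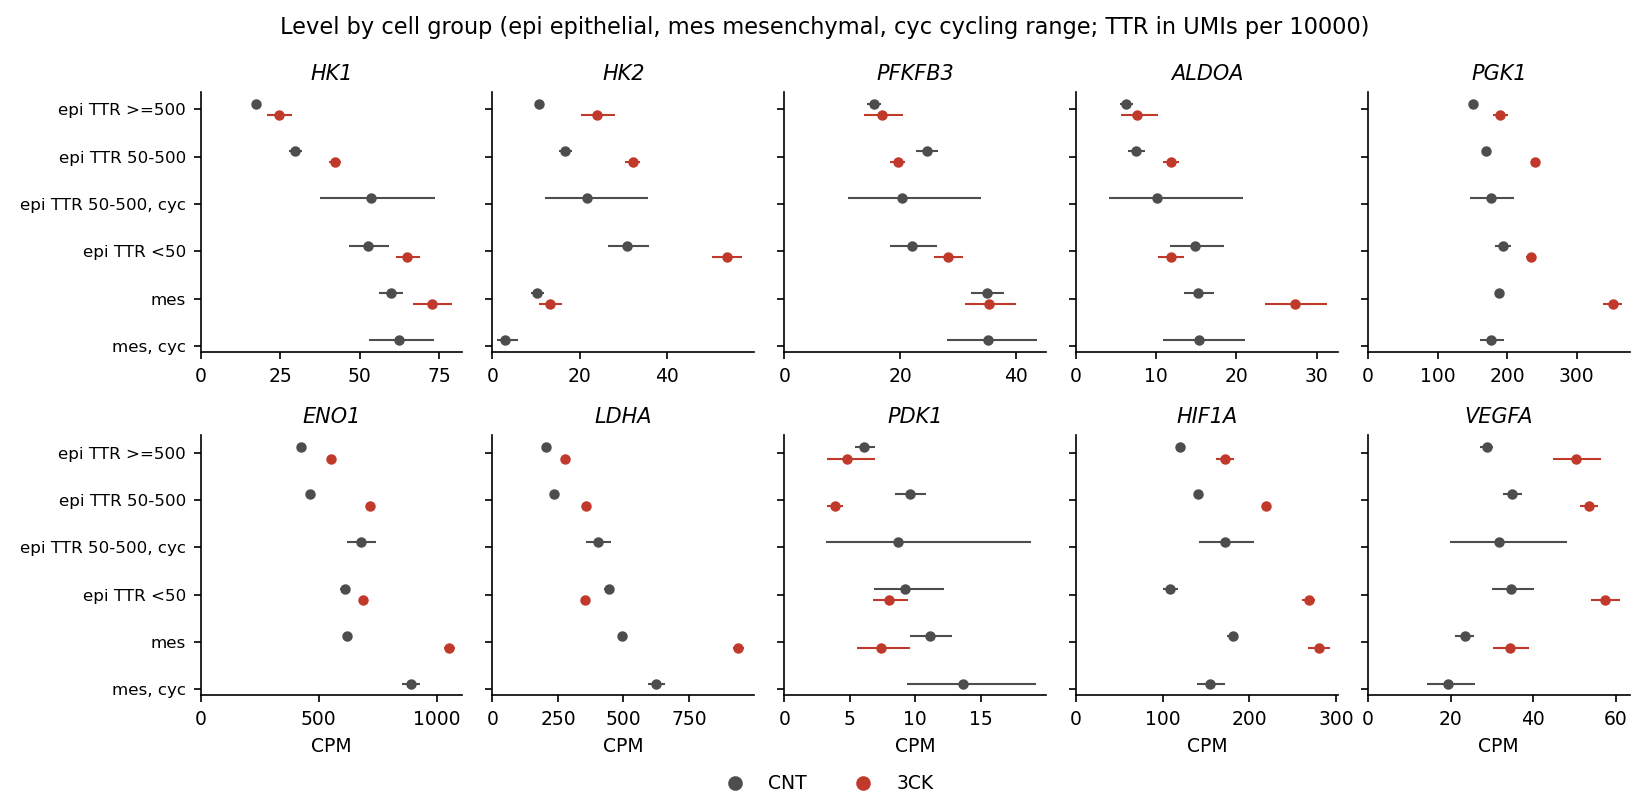
Level in CPM of each gene in the cell groups of at least 50 cells in CNT (grey) and 3CK (red), with 95% counting intervals; groups marked cyc are in the cycling range and the others outside it. HIF1A in epithelial cells with TTR under 50 is at 109 in CNT and 268 in 3CK, whereas LDHA in the same cells is at 444 and 355.

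Members were compared by their pattern over the 10 groups, as Pearson's r of log2(CPM + 1). The groups share libraries and depth, so r is a description with no test. ALDOA and LDHA were the most alike pair at 0.97, followed by ENO1 and LDHA at 0.93 and HK2 and VEGFA at 0.89, while PDK1 and VEGFA ran opposite at -0.74. The hexokinases had unlike patterns, with r of -0.01. Over all 12785 genes with at least 10 CPM in a group, the gene most like LDHA was ALDOA. For the other members given here it was EPRS for HK1 (0.99), ALPK2 for PFKFB3 (0.97), CLP1 for ALDOA (0.98), CD38 for PGK1 (0.98), SF3B4 for ENO1 (0.99), HDAC2 for PDK1 (0.97), CXCL6 for HIF1A (0.96) and PDZK1IP1 for VEGFA (0.98).

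To compare single cells at 1 depth, 5000 UMIs were drawn from each cell. Shallower cells could not enter, and these were 595 epithelial cells of CNT and 240 of 3CK, and 257 and 17 mesenchymal cells. The summed UMIs of the 10 genes had a median of 4 per CNT epithelial cell (10th to 90th percentile 2 to 9) and 8 per 3CK epithelial cell (3 to 14). Mesenchymal cells had medians of 8 (3 to 15) and 13 (6.6 to 22). The distributions overlapped, and the 3CK epithelial cells lay close to the CNT mesenchymal cells. The sum mostly reflects the abundant members. In CNT epithelial cells its mean was 5.00 UMIs, with 2.04 from ENO1, 1.04 from LDHA, 0.775 from PGK1 and 0.657 from HIF1A. HK2 was seen in 6.98% of thinned CNT and 16.2% of thinned 3CK epithelial cells (29.4% and 59.8% unthinned), VEGFA in 12.6% and 24.7% (49.7% and 68.1%), and HIF1A in 41.7% and 63.5% (66.7% and 85.0%). PDK1 was close to level by this measure, at 3.68% of thinned CNT and 3.61% of thinned 3CK epithelial cells. Its mesenchymal values were 5.94% and 5.61%. PFKFB3 was seen in 8.96% and 10.4% of the thinned epithelial cells. No class in these cultures is known to lack these genes, so the share that free RNA alone would give was not tested.

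Across thinned cells ENO1 and LDHA had the closest relation of the pairs examined, with Spearman's rho of 0.24 over 1060 CNT and 0.32 over 776 3CK epithelial cells, and 0.50 over 320 and 0.41 over 107 mesenchymal cells. HIF1A and LDHA had rho between -0.14 and -0.03 in the 4 sets. In sparse counts such weak values are no finding. Among the thinned 3CK epithelial cells, the 467 with a CXCL10 UMI had 48.8 CPM of VEGFA and the 309 without had 79.0, HIF1A was at 236 and 295, and ENO1 at 715 and 609. For the other 7 members the counting interval of this ratio included 0. Among the thinned 3CK mesenchymal cells, HIF1A had the opposite direction, at 296 CPM in the 79 cells with a CXCL10 UMI and 193 in the 28 without (log2 ratio 0.62, 0.01 to 1.28). LDHA was lower there in the cells with CXCL10, at 792 and 993 CPM (-0.33, -0.62 to -0.03), and the intervals of the other 8 members included 0. All these cells came from 1 library, and the share of all genes with intervals off 0 was not counted in either class. The counts by CXCL10 therefore do not set the members apart from other genes.

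**Figure D5:**
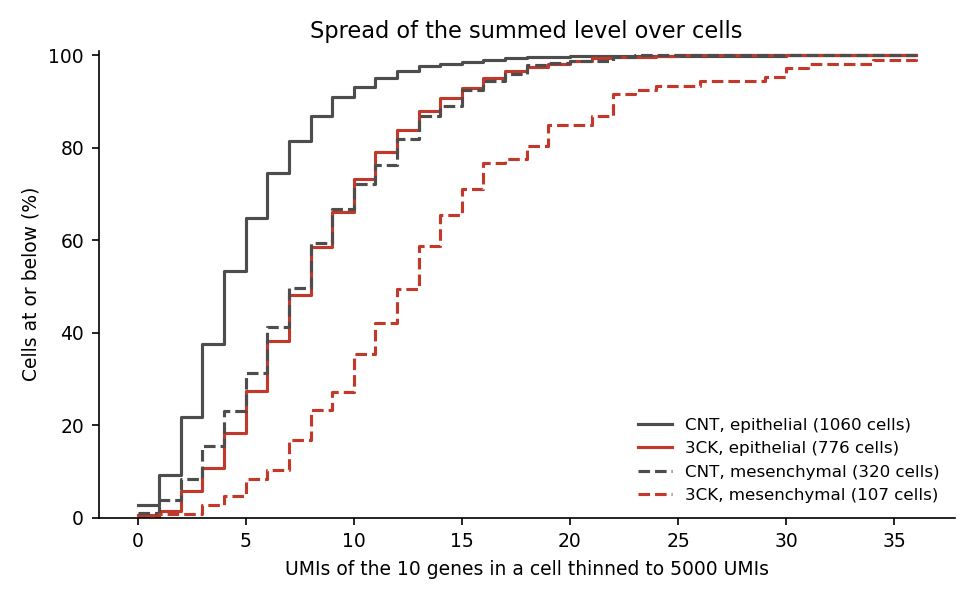
Cumulative share of cells (%) by the summed UMIs of the 10 genes in a cell thinned to 5000 UMIs, for epithelial (solid) and mesenchymal cells (dashed) of CNT (grey) and 3CK (red). The curve of CNT epithelial cells, with a median of 4, lies left of the others, and that of 3CK mesenchymal cells, with a median of 13, lies to the right.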

How the data were processed

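Raw UMI counts, 1 value for each gene in each barcode, were deposited by the authors without scaling. They came from Cell Ranger 7.1.0, per the file headers, and build GRCh38, per the submitters' processing notes, and the annotation release is not given in the sources used here. Reads were counted at 3' ends, so levels were not divided by gene length. The 10 members, the 6 gene lists and the class rules were chosen with earlier results of these data known.

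Barcodes with at least 500 genes and at most 20% mitochondrial UMIs were kept (412 CNT and 52 3CK barcodes had too few genes, 306 and 175 more only a higher mitochondrial share), and the highest Scrublet scores (scanpy 1.11.5) were removed at 0.8% per 1000 barcodes (52 and 16). UMIs were summed per library and class and scaled to CPM. At these depths 3 UMIs are 0.0395 CPM in CNT and 0.0428 in 3CK epithelial cells, and 0.153 and 0.329 in mesenchymal cells. Sums carry exact Poisson intervals, ratios intervals from the exact binomial interval of the share of both counts, and shares Clopper-Pearson intervals, all at 95%. With 1 library per group there is no test. Single genes named beside the members were those with the highest mean CPM and the largest and smallest ratio of each list, by class, among genes that reached 10 CPM in CNT or 3CK. HKDC1, SLC2A1, PFKP, ALDOC, TPI1, PGAM1, PKM, LDHB, MPC1, EPAS1, EGLN1, BNIP3, NDRG1, ANKRD37, ADM, AK4, STC2, BHLHE40, LOXL2, NRP2 and the CXCL10 division of cells were added after the values were seen. Some genes that this rule or these counts include are not reported here. Ratio intervals were tested on simulated data, with no result given here, and they hold counting error only. There were 12 alternatives, among them TMM factors (edgeR 4.0.16), other totals, filters, class boundaries and equal weight of cells.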

Additional observations from a re-analysis of the deposited data

Results flagged for a closer look

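For 10 of the named genes the ratio of 3CK over CNT had opposite directions in epithelial and mesenchymal cells, with counting intervals on either side of 0 in each class; none of these is a member. The difference between the classes was not tested, since each class has 1 library per group. The first value is the epithelial log2 ratio and the second the mesenchymal one. Among hypoxia response genes these were NDRG1 (-1.57 and 1.00), LOXL2 (-1.46 and 0.26), BNIP3 (-0.40 and 1.17), ANKRD37 (-0.25 and 0.98) and AK4 (-0.21 and 1.26). MPC2, of the mitochondrial pyruvate carrier, was at -1.07 and 0.46. Of the HIF genes, EPAS1 was at 0.88 and -0.54, and ELOB at -0.20 and 0.14. The VEGF co-receptor NRP1 was at 0.61 and -0.32, and NRP2 at -1.22 and 0.71. The opposite directions of AK4, LOXL2, MPC2 and NRP1 were lost under at least 1 alternative, with the values given beside them in the results or below. With equal weight of cells the mesenchymal value of NDRG1 was 0.11, that of EPAS1 -0.08 and that of ELOB 0.01. The count of 10 depends on which genes were named. AK4, ANKRD37, BNIP3, EPAS1, LOXL2, NDRG1 and NRP2 were named after the values were seen. Genes of the lists that were not named also met the rule, such as PFKL (-0.22 and 0.23). The share of all compared genes that met it was not counted.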

How the results depend on the processing

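With 1 library per group no replicate could be left out, and no paired analysis was possible because there is 1 library per group. In epithelial cells the median log2 ratio of the 10 genes was 0.64, and 0.52 on a total without mitochondrial, ribosomal and the 50 most abundant genes, and 0.40 as a mean over TTR ranges; 1 member was 2-fold apart, 2 with equal weight of cells, and 0 as a mean over TTR ranges or among members with at least 50 CPM. In mesenchymal cells the median was 0.70 and with TMM factors 0.88, and the count was 0, with 3 under TMM and 1 under strict classes (epithelial cells under the collagen minimum, mesenchymal cells with no EPCAM UMI, 49 of them in 3CK). The median of epithelial over mesenchymal cells was -0.55 in CNT, -0.12 with TMM and -0.39 with equal weight. In 3CK it was -0.63, and -0.45 with TMM, -0.58 on the reduced total, -0.70 with equal weight and -0.89 with strict classes. Of the named genes at least 2-fold apart between the libraries, 2 changed sign: AK4 in mesenchymal cells, from 1.26 to -0.88 with equal weight, and LOXL2 in epithelial cells, from -1.46 to 0.013 with strict classes. Smaller ratios changed sign as given in the results, and FLT1 in epithelial cells went from 0.37 to -0.84 with equal weight and 1.57 with strict classes, AK4 there to 0.09 as a mean over TTR ranges. TMM moved the median of all genes in mesenchymal cells from -0.12 to 0.06. The signs of HK1, HK2, ALDOA, PGK1, ENO1, LDHA, HIF1A and VEGFA, 3CK over CNT, were the same under the alternatives run in both classes, VEGFA in mesenchymal cells ranging from 0.11 to 1.58; those of PFKFB3 and of PDK1 in mesenchymal cells were not, as given in the results. Depth limits PDK1, HK2 and ALDOA most, above all in the 124 3CK mesenchymal cells.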
